A study of Mus musculus with 8 samples.

Results

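The IL-1 family ligands and receptors examined here comprised 10 genes, namely the agonist ligands *Il1a*, *Il1b*, *Il33* and *Il18*, the receptor antagonist *Il1rn*, the signalling receptor chains *Il1r1*, *Il1rap*, *Il1rl1* and *Il1rl2*, and the decoy receptor *Il1r2*. They were chosen by gene symbol from the 54658 genes of the count table, and all 10 were found. RNA-Seq was performed on primary murine articular chondrocytes, the cells of joint cartilage, taken from femoral head cartilage of wild-type mice aged 3 weeks. Cells were treated with IL-1β at 1 ng/mL for 24 h (n = 4) or with vehicle for the same time (n = 4). The labels do not state whether the 4 samples of a group came from separate animals or cultures. P-values therefore measure the spread between these samples, which may be technical, except in the fit without a filter described below.

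Ligands of the IL-1 family bind a specific receptor chain, which then recruits the shared accessory chain IL1RAP, and the paired intracellular domains assemble MyD88 and IRAK kinases to activate NF-κB and MAP kinases. IL1R1 is the receptor of IL-1α and IL-1β, IL1RL1 (also called ST2) that of IL-33, and IL1RL2 that of the IL-36 cytokines, and all of these use IL1RAP. IL-1 signalling is restrained by the antagonist IL-1RN, which occupies IL1R1 without recruiting IL1RAP, and by IL1R2, which binds IL-1 without signalling. In cartilage, IL-1β is widely used to model inflammatory loss of matrix.

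In these chondrocytes, IL-1β raised the mRNA of 2 receptor chains, the accessory chain *Il1rap* (2.22-fold) and the IL-33 receptor *Il1rl1* (2.45-fold). No change was called for *Il1r1*, the receptor of the added cytokine, or for *Il18*. The other 6 members were too low for the test, with *Il1b*, *Il1rn*, *Il33* and *Il1r2* at 10 reads or fewer in the sum of either group's 4 libraries.

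Promoter sequences of the 3 receptor chains on which these results turn are shown first, since 2 of these genes rose and the other was not called. All 10 members matched the RefSeq promoter table (GRCm38.p6), with 15 windows of 250 bases upstream of an annotated start. For *Il1r1* and *Il1rl1*, which have several annotated starts, the window printed is the one that holds a match in capitals, and the counts do not show which start was used. The windows are chr16:26581455-26581704 for *Il1rap*, chr1:40439379-40439628 for *Il1rl1* and chr1:40266336-40266585 for *Il1r1*, all on the plus strand. Sequences are written 5′ to 3′, and capitals mark matches to κB, AP-1, TATA box (TATAAA) and SP1 GC box (GGGCGG) motifs on either strand.
Il1rap: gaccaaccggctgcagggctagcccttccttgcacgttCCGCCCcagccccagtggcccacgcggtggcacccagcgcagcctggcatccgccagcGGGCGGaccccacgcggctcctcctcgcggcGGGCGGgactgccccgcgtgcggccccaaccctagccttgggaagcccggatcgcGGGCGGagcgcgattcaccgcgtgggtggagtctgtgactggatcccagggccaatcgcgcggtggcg
Il1rl1: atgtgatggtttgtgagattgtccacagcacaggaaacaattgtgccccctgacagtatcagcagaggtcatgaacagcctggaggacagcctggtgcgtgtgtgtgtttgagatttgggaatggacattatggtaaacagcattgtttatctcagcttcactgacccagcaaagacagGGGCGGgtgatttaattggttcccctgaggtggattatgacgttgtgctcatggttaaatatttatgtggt
Il1r1: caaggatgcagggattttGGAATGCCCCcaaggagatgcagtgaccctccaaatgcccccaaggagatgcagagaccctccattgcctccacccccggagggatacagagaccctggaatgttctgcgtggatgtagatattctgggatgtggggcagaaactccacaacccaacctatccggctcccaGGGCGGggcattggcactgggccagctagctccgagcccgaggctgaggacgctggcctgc

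The *Il1rap* window was GC-rich (74.4% GC and 30 CpG dinucleotides, against medians of 52.4% and 6 over 32851 RefSeq windows of the same length) and held 4 GC boxes. The *Il1rl1* window had 46.4% GC, 3 CpG and 1 GC box, and the other *Il1rl1* window, not printed, had 37.6% GC, 0 CpG and 0 GC boxes. The *Il1r1* window had 60.4% GC, 7 CpG and 1 GC box, and it held the only κB match among the 15 windows, GGGGCATTCC on the minus strand. That match lay 232 to 223 bases upstream and overlapped a C/EBP match (TTNNGNAA). The other *Il1r1* window, not printed, had 48.4% GC, 3 CpG, 0 κB matches and 0 GC boxes. AP-1 matches (TGACTCA or TGAGTCA) were found only in *Il1a*, 12 to 6 bases upstream, and in *Il1rn*, 141 to 135 bases upstream. *Il1a*, *Il1b* and 1 of the *Il33* windows each held a TATA box close to the start, 32 to 27, 31 to 26 and 29 to 24 bases upstream. Over all windows, 7.25% held a κB match, 4.46% AP-1, 36.8% C/EBP, 12.4% a TATA box, 32.7% a GC box and 7.02% a STAT match (TTCNNNGAA), so GC boxes and C/EBP matches are common. A match is a description of the sequence, and no binding was measured here.

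Libraries held 10992355 to 17456063 counts, and 3 counts, taken as the limit of detection in a library, correspond to 0.172 to 0.273 CPM. Lower values are also given below and rest on few reads. CPM is the count of a gene per megaread of library size, scaled here by trimmed mean of M values (TMM). Genes with CPM above 1 in at least 4 samples were tested (14404 genes). Samples of the same group differed by more than sampling noise in every pair, with a chi-square per degree of freedom of 1.98 to 6.34, the 2 highest values being those of vehicle replicate 4 with replicates 1 and 2. Chondrocyte markers were abundant in all samples, with a summed level of 6181 to 6709 CPM with IL-1β and 17057 to 17650 CPM with vehicle, and 10 of these 11 markers were lower with IL-1β and 1 (*Prg4*) higher. The part of this in the results below was not tested. Summed levels stayed at 0.811 CPM or less for lymphocyte, 1.25 CPM or less for endothelial and 3.21 CPM or less for epithelial markers, with *Krt18* the only one of these tested and none called. In such bulk samples, fewer cells of a type and less RNA per cell cannot be told apart.

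*Il1rap*, the accessory chain shared by the IL-1, IL-33 and IL-36 receptors, lies on chromosome 16 (GRCm38, 26581704 to 26730117, plus strand). Its level was 12.3, 11.0, 12.0 and 11.0 CPM in the IL-1β samples and 4.5, 6.3, 4.92 and 4.99 CPM in those given vehicle. The groups did not overlap, and vehicle replicate 2, the highest of its group, was still below every IL-1β sample. Group means were 11.6 ± 0.671 against 5.18 ± 0.778 CPM (SD, n = 4 each). The log2 fold change was 1.15 (SE 0.111), a fold of 2.22 (95% confidence interval 1.9 to 2.6), with an adjusted p of 9.76e-10 by edgeR's quasi-likelihood test with Benjamini-Hochberg adjustment. The counts join 7 annotated transcripts, so forms that encode membrane-bound and soluble protein were not separated. The strand setting of the counting is not given in the sources used here, and 4.86% of the exon bases are shared with *Gm20319* on the opposite strand, whose reads cannot be told apart there.

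*Il1rl1* encodes ST2, the receptor chain for IL-33, and its shorter transcript encodes a soluble form that captures IL-33. The level was 2.7, 3.46, 3.03 and 3.26 CPM with IL-1β and 0.923, 1.44, 1.35 and 1.38 CPM with vehicle. The groups did not overlap, and vehicle replicate 1 was the lowest of all 8 samples and the only one below 1 CPM. Means of 3.11 ± 0.326 against 1.28 ± 0.238 CPM (SD, n = 4 each) gave a log2 fold change of 1.29 (SE 0.197) and a fold of 2.45 (95% confidence interval 1.85 to 3.25), with an adjusted p of 3.76e-06 (edgeR, Benjamini-Hochberg). These values rest on 175 reads with IL-1β and 81 with vehicle. The 5 annotated transcripts were counted together, so soluble and membrane ST2 cannot be told apart.

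*Il1r1*, the signalling receptor of IL-1α and IL-1β, was the most abundant member, also per length. It was measured at 33.7, 32.7, 32.1 and 37.2 CPM with IL-1β and at 36.1, 34.4, 36.5 and 36.2 CPM with vehicle. The groups overlapped, since 3 IL-1β samples lay below the vehicle samples and IL-1β replicate 4 above them. Means were 34.0 CPM ± 2.28 and 35.8 CPM ± 0.957 (SD, n = 4 each), and the log2 fold change of -0.08 (SE 0.0519) did not pass the test (adjusted p = 0.262, edgeR). The 95% confidence interval of the fold was 0.881 to 1.02, which does not reach a 2-fold change in either direction. The 3 tested genes whose log2 CPM correlated most closely with that of *Il1r1* over the 8 samples were *Gon7* (Pearson r = 0.973), *Utp6* (0.967) and *Gm3226* (0.943). They are given as a description over samples that share 2 treatments, and none of the 3 was called. Since they were picked as the highest of all tested genes over so few samples, such values can arise by chance.

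*Il18* encodes a cytokine that is made as an inactive precursor and cleaved by inflammatory caspases. Its level was 0.631, 1.15, 1.31 and 1.28 CPM with IL-1β and 1.27, 0.809, 1.21 and 1.58 CPM with vehicle. The ranges overlapped, with IL-1β replicate 1 the lowest and vehicle replicate 4 the highest of the 8 samples. The means of 1.09 CPM ± 0.315 and 1.22 CPM ± 0.316 (SD, n = 4 each) gave a log2 fold change of -0.10 (SE 0.271, adjusted p = 0.802, edgeR), and the interval of the fold, 0.633 to 1.37, was wide at 63 and 77 reads.

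**Figure D1:**
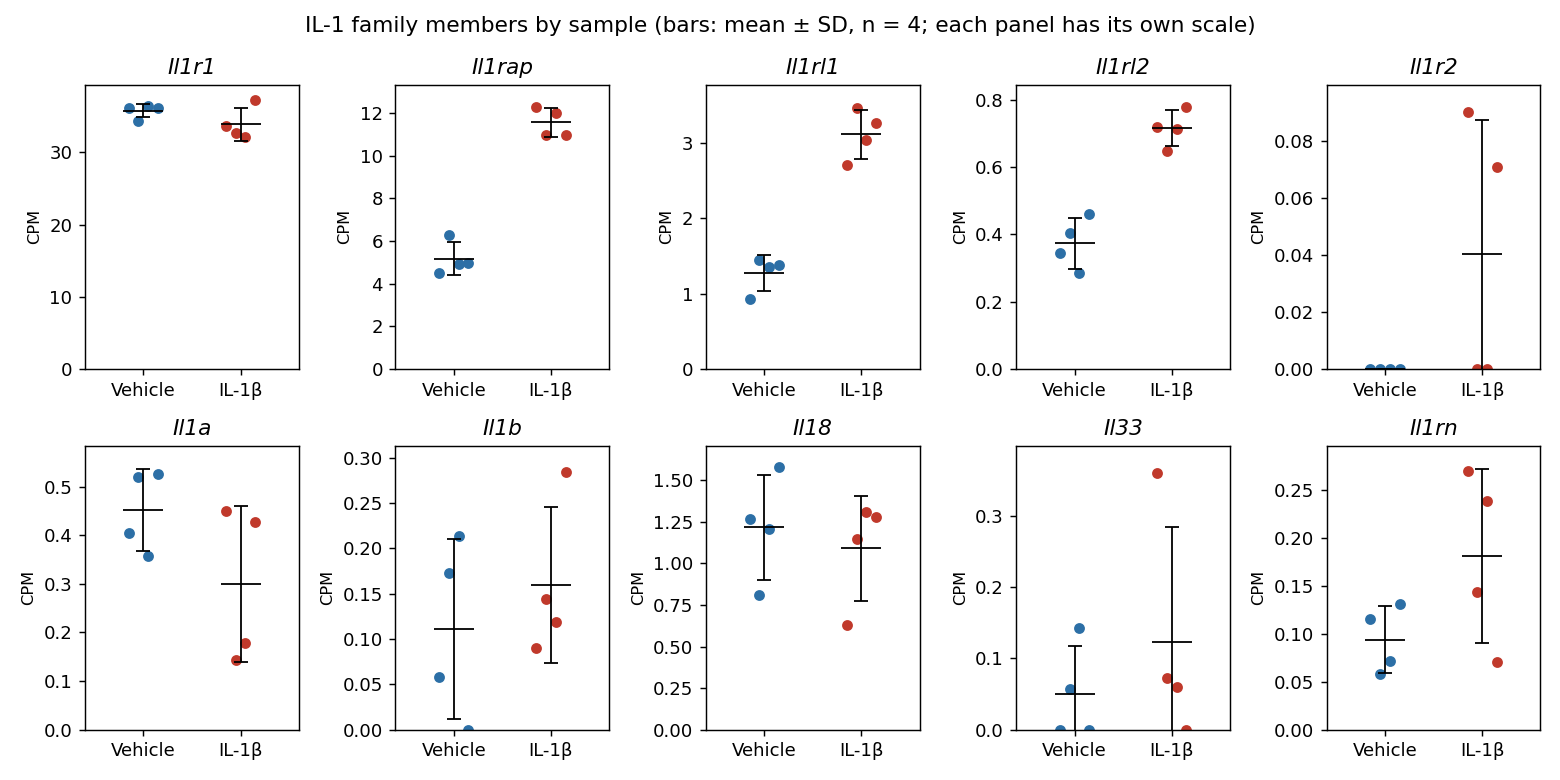
TMM-scaled CPM of the 10 IL-1 family members in each sample, with the mean and SD (n = 4) as bars, cut at 0, and a separate linear axis from 0 for each gene. *Il1rap*, *Il1rl1* and *Il1rl2* show IL-1β samples above all vehicle samples, *Il1r1* and *Il18* overlap, and the panels of *Il1b*, *Il33*, *Il1rn* and *Il1r2* rest on 0 to 4 reads a library.

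Of the 10 members, 4 were tested, 2 were called higher and 0 lower at an adjusted p under 0.05, against 20.4% of all genes tested called higher and 19.8% lower. Both called members also passed a log2 fold change of 1, which 2.86% of genes passed upward and 2.35% downward, and both had all IL-1β samples above all vehicle samples, as 18.7% of genes did, while 18.2% had all of them below. All 4 exceeded 1 CPM in samples of both groups, *Il1rl1* in 7 samples, *Il18* in 6, and *Il1r1* and *Il1rap* in 8. For *Il1rl1*, the exception was vehicle replicate 1 (0.923 CPM). Its IL-1β samples alone were thus enough to pass the filter, and its vehicle samples alone were not. With 4 members tested, these shares describe the genes and are no test of the family.

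The remaining receptor chain, *Il1rl2*, which binds the IL-36 cytokines, was counted at 8, 9, 12 and 11 reads with IL-1β and at 6, 7, 4 and 7 reads with vehicle. In CPM, every IL-1β sample (0.649 to 0.78) was above every vehicle sample (0.285 to 0.46), with means of 0.716 ± 0.0537 and 0.374 ± 0.0752 (SD, n = 4 each). In the fit without a filter on low counts, over the 32379 genes with a count, the log2 fold change was 0.91 (SE 0.415) and did not pass the test (adjusted p = 0.129, edgeR). In that fit 8.92% of genes were called higher and 9.02% lower. Confidence intervals in this fit had the width that a normal distribution gives. Its p-values thus rest on spread pooled over genes, and hardly on each gene's own spread between samples. *Il1r2*, the decoy receptor, had 1, 0, 0 and 1 reads with IL-1β and 0 in the 4 vehicle libraries, which allows up to 0.047 CPM over the vehicle group by the limit of 3 counts, so no fold is given.

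Among the ligands, *Il1a* had 5, 2, 3 and 6 reads with IL-1β and 7, 9, 5 and 8 with vehicle. Its CPM ranges overlapped (0.3 ± 0.161 and 0.452 ± 0.0847, SD, n = 4 each), with a log2 fold change of -0.65 (SE 0.499, adjusted p = 0.475, edgeR without a filter). Of its exon bases, 11.2% are shared with the opposite-strand gene *Gm14023*, as are 1.31% of those of *Il1b* with *Il1bos*. *Il1b*, which encodes mouse IL-1β, had 1, 2, 2 and 4 reads with IL-1β and 1, 3, 3 and 0 with vehicle, a pooled level of 0.0734 to 0.305 CPM and 0.0441 to 0.226 CPM (95% Poisson intervals, which cover counting error only). These intervals overlap, which is not a test. The fit without a filter gave a fold of 1.43 (95% confidence interval 0.468 to 4.35, adjusted p = 0.75, edgeR). No difference in *Il1b* mRNA was thus detectable at this depth, and the wide interval leaves large changes open. *Il33*, an alarmin held in the nucleus until cells are damaged, had 4, 1, 1 and 0 reads with IL-1β and 0, 1, 2 and 0 with vehicle.

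The antagonist *Il1rn* had 3, 2, 4 and 1 reads with IL-1β and 2, 1, 1 and 2 with vehicle. The pooled levels, 0.0855 to 0.328 and 0.0345 to 0.205 CPM (95% Poisson intervals), overlapped. In the fit without a filter the fold was 1.83 (95% confidence interval 0.593 to 5.62, adjusted p = 0.568, edgeR). A difference was not detectable at this depth, and the interval is wide. Macrophages and neutrophils are common sources of IL-1β and IL-1RN. All 7 neutrophil markers stayed at 3 reads or fewer in every library, 4 of them at 0. Of 10 macrophage and monocyte markers, *Adgre1*, *Itgam*, *Fcgr1* and *Tyrobp* stayed at 3 reads or fewer and *Ptprc*, the pan-leukocyte gene, reached at most 6. *Csf1r* reached 19 reads (mean 0.938 CPM with IL-1β and 0.721 with vehicle) and *Laptm5* 22 reads (0.422 and 1.17 CPM), and the summed level of the list was 16.4 to 18.0 CPM with vehicle and 30.2 to 34.3 CPM with IL-1β, with *Cd68* and *Cd14* higher and *Lyz2* lower. The part of such cells in the reads of *Il1b* and *Il1rn* was not tested. Of 7 markers of mast cells, which carry ST2, 5 were at 0 in all libraries (*Cpa3*, *Mcpt4*, *Cma1*, *Fcer1a* and *Ms4a2*). *Kit* reached 7 reads (mean 0.0731 CPM with IL-1β and 0.283 with vehicle) and *Tpsb2* 2 reads (0.0477 and 0.0 CPM). The summed level of the list was 0.0709 to 0.178 CPM with IL-1β and 0.116 to 0.404 CPM with vehicle. Any part of mast cells in the level of *Il1rl1* was not tested.

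Levels of different genes were compared per kilobase of exon. The lengths join the exons of all annotated transcripts (6363 bases for *Il1r1*, 11360 for *Il1rap*, 1031 for *Il18* and 5535 for *Il1rn*). They may exceed those of the transcripts expressed, which were not measured, so the order, ratios and shares below depend on them. *Il1r1* led in both groups, at 5.34 CPM per kb ± 0.358 with IL-1β and 5.62 ± 0.15 with vehicle (SD, n = 4 each), 5.04 and 4.77 times the next member, *Il18*. *Il18* followed at 1.06 ± 0.305 and 1.18 ± 0.306 CPM per kb. With vehicle, *Il1rap* came next at 0.456 ± 0.0685 CPM per kb, below the range of *Il18*. With IL-1β it reached 1.02 ± 0.0591, and its range then overlapped that of *Il18*. *Il1rl1* stood at 0.452 ± 0.0473 with IL-1β, apart from its neighbours in the order, and at 0.185 ± 0.0345 with vehicle, where it overlapped *Il1a* (0.229 ± 0.0429). Below these, the order could not be resolved with IL-1β, since from *Il1a* down each member overlapped the next. Among all tested genes, *Il1r1* was above 54.7% with IL-1β and 56.5% with vehicle, *Il1rap* above 18.6% and 7.8%, and *Il1rl1* above 7.5% and 1.56%.

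**Figure D2:**
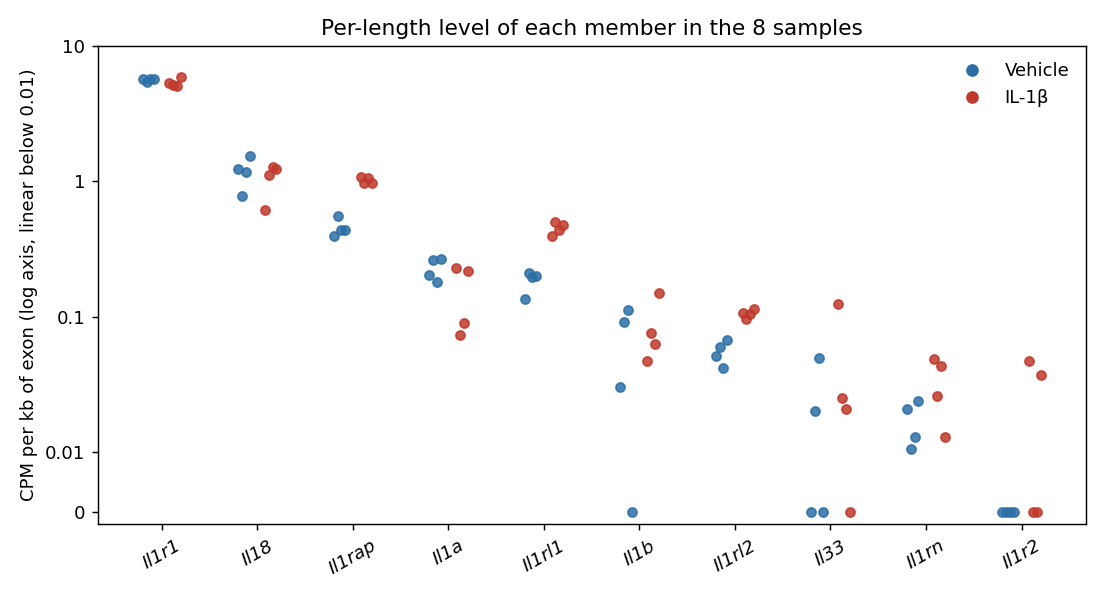
TMM-scaled CPM per kilobase of exon for the 10 members in each of the 8 samples, on a log axis that is linear below 0.01, with genes in the order of their vehicle mean. *Il1r1* lies above 5 CPM per kb in all samples, and *Il1rap* with IL-1β reaches the range of *Il18*.

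The ratio of *Il1r1* to *Il1rap*, the 2 chains of the IL-1 receptor, was 4.91, 5.33, 4.78 and 6.05 per length with IL-1β and 14.3, 9.75, 13.2 and 12.9 with vehicle. *Il1r1* thus remained the more abundant chain in all samples, by a mean of 5.27 ± 0.57 with IL-1β and 12.6 ± 1.97 with vehicle (SD, n = 4 each), and the ranges did not overlap. This ratio restates the change in *Il1rap* and was not tested on its own. Its size depends on the lengths used. Not divided by length, mean CPM was 34.0 for *Il1r1* and 11.6 for *Il1rap* with IL-1β, and 35.8 and 5.18 with vehicle. The decoy *Il1r2* made up 0.379% ± 0.449 of the per-length mRNA of *Il1r2* and *Il1r1* with IL-1β and 0% with vehicle. This share rests on 2 reads and was 0.21% without IL-1β replicate 1. The antagonist *Il1rn* made up 13.8% ± 7.69 of *Il1rn*, *Il1a* and *Il1b* together with IL-1β and 5.85% ± 2.73 with vehicle, with overlapping ranges and few reads.

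The 4 member receptor genes other than *Il1rap* lie with *Il18r1* and *Il18rap* in 1 cluster of 478 kb on chromosome 1 (GRCm38, 40074079 to 40551705), all on the plus strand, in the order *Il1r2*, *Il1r1*, *Il1rl2*, *Il1rl1*, *Il18r1* and *Il18rap*. The last 2 encode the binding and the accessory chain of the IL-18 receptor. Neighbouring genes did not all receive the same call. *Il1rl1* rose, whereas no change was called for *Il1r1*, and *Il18r1*, which starts 0.137 kb after the end of *Il1rl1*, had 1, 0, 4 and 4 reads with IL-1β and 7, 7, 2 and 4 with vehicle (adjusted p = 0.399, edgeR without a filter). *Il18rap*, the next gene, had 12, 14, 22 and 10 reads with IL-1β and 3, 5, 9 and 2 with vehicle. Its groups did not overlap in CPM (1.03 ± 0.247 and 0.309 ± 0.232, SD, n = 4 each), and it was higher in the fit without a filter (log2 fold change 1.76, SE 0.396, adjusted p = 9.47e-05, edgeR). With DESeq2, also without a filter, the adjusted p was 0.0039. Differences between the fold changes of neighbours were not tested.

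**Figure D3:**
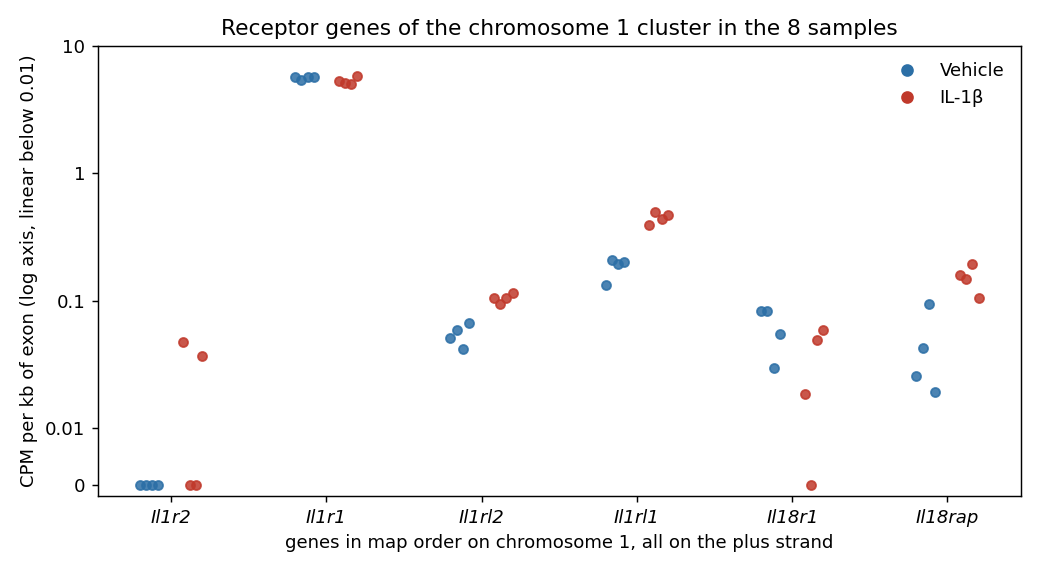
TMM-scaled CPM per kilobase of exon in each sample for the 6 receptor genes of the chromosome 1 cluster, in map order, on a log axis that is linear below 0.01. IL-1β samples lie above vehicle samples for *Il1rl2*, *Il1rl1* and *Il18rap*, while *Il1r1* overlaps.

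Other ligands, receptors and binding proteins of the family were mostly near the limit of detection, with 1 of 11 tested. That gene was *Il18bp*, which encodes a soluble binder of IL-18, at 4.59, 3.75, 4.1 and 3.9 CPM with IL-1β and 4.15, 4.68, 4.64 and 5.98 with vehicle. It was not called (log2 fold change -0.25, SE 0.141, adjusted p = 0.163, edgeR), and it made up 56.6% ± 9.79 and 58.0% ± 5.84 of the per-length mRNA of *Il18bp* and *Il18* (SD, n = 4 each). *Il1f6*, which encodes IL-36α, had 1 read in each IL-1β library and 0 with vehicle, and *Il1f9*, which encodes IL-36γ, had 5 reads in IL-1β replicate 2 and 0 elsewhere. *Sigirr* had 5 and 4 reads in all. *Il1rapl1*, known mainly from neurons, had 0, 0, 5 and 1 reads with IL-1β and 10, 6, 4 and 3 with vehicle (log2 fold change -1.69, adjusted p = 0.0646, edgeR without a filter). Leaving out 1 library moved it from -3.44 (adjusted p = 0.00557, without IL-1β replicate 3) to -1.29 (adjusted p = 0.244, without IL-1β replicate 2). It was also called lower without vehicle replicate 4 (-1.88, adjusted p = 0.0432) and with 1 RUVs factor, a covariate for unwanted variation (adjusted p = 0.0386).

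Of the 38 other genes of the pathway, 25 were tested, 12 were higher, 1 was lower and 12 were not called, with a median log2 fold change of 0.11. Over all genes tested, 20.4% were higher and 19.8% lower, with a median of -0.0012. The lists were chosen with earlier results of these data known, so these counts describe the genes and are no test. All 13 genes of receptor-proximal signalling were tested, and 4 were higher and 0 lower (median -0.01), beside 20.4% and 19.8% of all genes tested, and nothing is read from this count. *Irak3*, which encodes IRAK-M, an inhibitor of signalling by the receptor complex, had the largest change of these, at 33.9, 33.3, 30.4 and 29.8 CPM with IL-1β and 6.86, 6.76, 6.7 and 6.44 with vehicle. IL-1β samples were far above vehicle samples (log2 fold change 2.24, SE 0.0758, adjusted p = 4.79e-20, edgeR), and 5.98% of its exon bases are shared with *Gm47009* and *Tmbim4* on the opposite strand. *Irak2* (log2 fold change 0.84), *Irak1* (0.17) and *Myd88* (0.12) were the other 3, and the first 2 of these are named after their values were seen. The call of *Myd88* (adjusted p = 0.0331) was lost with DESeq2 (adjusted p = 0.0697) and on leaving out IL-1β replicate 4 (0.15), vehicle replicate 1 (0.152) or vehicle replicate 3 (0.0952). Its exons share 11.3% of their bases with *Acaa1a* on the opposite strand. The kinase *Irak4* (log2 fold change -0.01, 95% confidence interval -0.17 to 0.15), the ubiquitin ligase *Traf6* (0.11, adjusted p = 0.142) and the kinase *Map3k7* (0.01, 95% confidence interval -0.07 to 0.09) were not called.

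Of 7 genes for processing and release of the ligands, 5 were tested, 3 were higher and 1 was lower. Over all genes tested, 20.4% and 19.8% were so called, and nothing is read from this count. *Gsdmd*, which encodes the pore through which mature IL-1β and IL-18 leave cells, was at 2.89 ± 0.825 against 1.31 ± 0.313 CPM (SD, n = 4 each, log2 fold change 1.09, SE 0.228, adjusted p = 0.000268, edgeR). Named after their values were seen, *Casp4* (log2 fold change 0.71) and *Capn1* (0.66) were higher and *Capn2* (-0.18) was lower, the calpains being proteases that cleave the IL-1α precursor. Opposite-strand genes share 11.8% of the exon bases of *Capn1* and 27.1% of those of *Capn2*. *Casp1*, the protease that matures IL-1β, had 5 reads in each group. *Nlrp3*, a sensor that activates it, had 2, 4, 7 and 5 reads with IL-1β and 1, 0, 1 and 0 with vehicle (adjusted p = 0.00411, edgeR without a filter). DESeq2 gave no adjusted p for *Nlrp3*.

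Of 7 first targets of the receptor, 6 were tested, 5 were higher and 0 lower, where 20.4% and 19.8% of all genes tested were so called. This list was also chosen with earlier results of these data known, so the count is no test of it. *Nos2*, the inducible nitric oxide synthase, had the largest change, 67.2 ± 4.51 against 1.57 ± 0.259 CPM (SD, n = 4 each, log2 fold change 5.40, adjusted p = 1.55e-27, edgeR). Genes for feedback inhibitors of NF-κB signalling or of cytokine mRNA were also higher, with log2 fold changes of 4.34 for *Zc3h12a*, 1.89 for *Nfkbia* and 1.42 for *Tnfaip3*, and *Nfkbiz*, an NF-κB cofactor, rose by 2.63. *Ptgs2*, which encodes cyclooxygenase 2, was abundant in both groups (367 CPM ± 8.07 with IL-1β and 385 ± 9.27 with vehicle) and was not called (log2 fold change -0.07, adjusted p = 0.0792, edgeR). It was called lower with 1 RUVs factor (adjusted p = 0.0403), and on leaving out IL-1β replicate 1 (0.0341) or vehicle replicate 1 (0.0367). *Il6* had 17, 14, 17 and 26 reads with IL-1β and 0 in all vehicle libraries, and was at least 28.1-fold higher against a limit of 3 counts over the vehicle group.

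**Figure D4:**
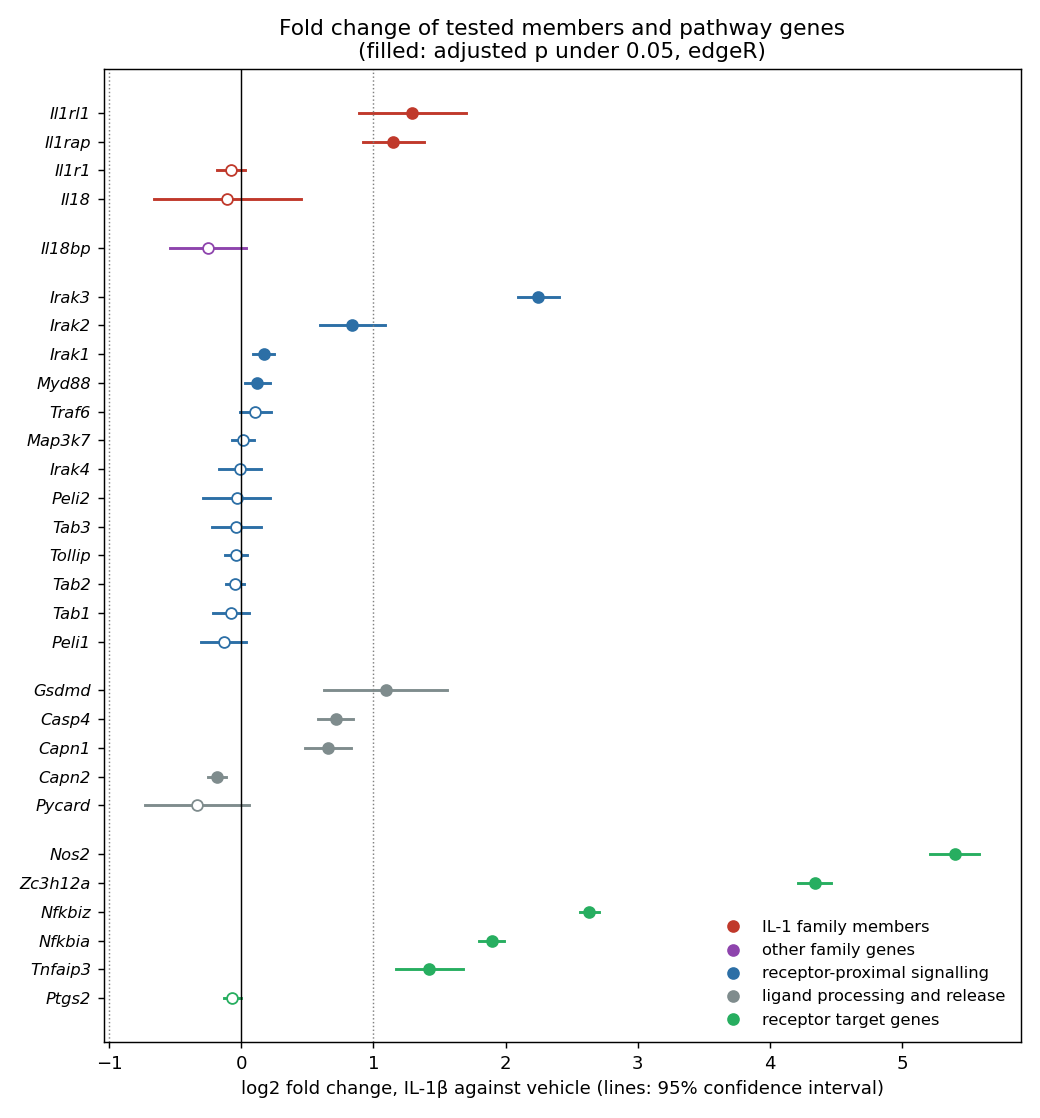
Log2 fold change (IL-1β against vehicle) with its 95% confidence interval for the 4 tested members and the 25 tested pathway genes, grouped by role, with filled points for an adjusted p under 0.05 (edgeR) and dotted lines at -1 and 1. *Il1rl1* and *Il1rap* lie above 1, *Il1r1* and *Il18* span 0, and *Nos2* and *Zc3h12a* have the largest values.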

How the data were processed

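RNA-Seq was available for 8 samples of primary murine articular chondrocytes, grouped by the treatment in their labels. Per the labels, the authors used cutadapt for trimming, STAR (2.4.2a) for alignment to mm10 and featureCounts for counting. The methods of the paper name another version of STAR, and which was used could not be settled here. The deposited values are whole-number counts per gene, not scaled to a common total, beside a deposited column of gene length in bases (unit: other). Whether the deposited counts precede or follow the RUVseq batch correction named in the methods is not given in the sources used here.

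After TMM normalisation, the quasi-likelihood test of edgeR (version 4.0.16, under R 4.3.3) was run with Benjamini-Hochberg adjustment over 14404 genes with CPM above 1 in at least 4 samples. DESeq2 1.42.0 was an alternative. Levels between genes used CPM per kb of the deposited length, which equalled the GENCODE vM21 exon length for all 10 members. Total counts per sample were 10992355 to 17456063, and limits of 3 counts and Poisson intervals cover counting error only. On simulated data with 200 of 14404 genes changed by 1.5 (log2), edgeR recovered 99.5% with 8 false calls and DESeq2 98.5% with 3. The simulation gave every gene the same spread between samples and changed far fewer genes than were called here. It therefore checks the code and does not measure the error rate of the real calls.

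The members and lists were chosen with earlier results of these data known. Genes named were all 10 members, the pathway genes past a log2 fold change of 1, other family genes with a count, *Myd88*, *Irak4*, *Traf6* and *Map3k7*, and the 3 genes most correlated with *Il1r1*. *Il1rn* was below the filter and had no such genes. Other genes are marked as named after their values were seen or, for *Il6*, *Ptgs2*, *Nlrp3*, *Casp1* and the markers, come from the lists. Alternatives were DESeq2, other scalings and filters, a replicate block, 1 RUVs factor and leaving out each sample. Other data of the study were not analysed here.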

Additional observations from a re-analysis of the deposited data

Results flagged for a closer look

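In 86 groups of 4 samples, 3 had a sample far from the others by Dixon's criterion at the 95% level, where chance gives about 1 in 20, or 4.3. *Il1f9* was at 0.361 CPM in IL-1β replicate 2, from 5 reads, and at 0 in the other 3 IL-1β samples. *Myd88* was at 73.1 CPM in IL-1β replicate 4, above the rest of its group. *Nos2* was at 73.9 CPM in IL-1β replicate 1, above the rest of its group and far above all vehicle samples.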

How the results depend on the processing

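*Il1rap* (log2 fold change 1.08 to 1.27) and *Il1rl1* (1.16 to 1.37) were called higher under every alternative in which they were tested, and *Il1r1* (-0.13 to -0.05) under none. With CPM above 1 required in all 8 samples, *Il1rl1* was not tested, and the members called higher, and those past a log2 fold change of 1, fell to 1. *Il18* ranged from -0.268 to 0.0473 on leaving out 1 sample, turning positive without IL-1β replicate 1 (0.0473) or vehicle replicate 4 (0.0415). *Irak4* (-0.0430 to 0.0267), *Map3k7* (-0.0080 to 0.0269), *Tab3* (-0.109 to 0.0044) and *Peli2* (-0.100 to 0.0385) also crossed 0 and were never called. The pathway genes called lower numbered 1 to 2 on leaving out 1 sample and 2 with 1 RUVs factor, as *Ptgs2* or *Pycard* (-0.56, adjusted p = 0.0246 without IL-1β replicate 2) was then called. Over all genes, 412 passed both limits upward and 339 downward, against 635 and 571 without a filter, where more genes were tested, and 266 upward with CPM above 1 in all 8 samples, where fewer were. The cause of the other changes was not tested.

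With the replicate number as a replicate block, *Il1rap* (1.15, adjusted p = 3.79e-09), *Il1rl1* (1.28, adjusted p = 8.7e-06) and *Il1r1* (-0.08) kept their calls in edgeR, with 411 genes past both limits upward and 340 downward. Deviations of same-numbered samples correlated at -0.0635 to 0.0336. Counting noise enters these deviations, so they cannot decide whether same-numbered samples share an animal or culture, which the labels do not state. Depth limits the 4 members at 10 reads or fewer a group.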
